A study of Mus musculus with 12 samples.

Results

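The genes described here are 42 mouse genes of the ATF4 amino-acid stress response. They were chosen by name: regulators and effectors of the integrated stress response, enzymes that make amino acids and one-carbon units, amino-acid transporters, and tRNA synthetases with the tRNA export receptor. Each of the 42 symbols was matched to 1 of the 55401 gene identifiers in the count files, and all 42 passed the filter on low counts. RNA-seq counts came from 12 libraries of the mouse neuroblastoma line Neuro-2a. Every culture received 1 µg of a GFP plasmid together with 3 µg of plasmid carrying miR30-based artificial microRNAs, and GFP-positive cells were sorted 48 hours later. The microRNAs were a scramble (miScramble), a pool of 3 against Rbmx (miRbmx) or a pool of 2 against Rbmxl1 (miRbmxl1), with 4 biological replicates in each group. Rbmx encodes an X-linked RNA-binding protein and Rbmxl1 is its retrocopy. The sort kept cells that took up the GFP plasmid; the knockdowns were transient, partial and made in 1 cell line.

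The integrated stress response is set off when kinases such as GCN2 and PERK phosphorylate the translation factor eIF2. Most translation then falls, while the Atf4 message is translated better because of short reading frames in its leader. ATF4 protein binds, often together with C/EBP proteins, to response elements in genes that make, import and charge amino acids onto tRNA. Atf4 is thus controlled largely at translation, and RNA counts do not measure ATF4 protein. In proliferating cells the same genes feed serine, glycine, asparagine and proline synthesis.

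Each library held 43.1 to 52.2 M reads in genes, and 3 reads correspond to at most 0.0696 CPM, counts scaled to the size of the library. The targets fell in the libraries whose labels name them. Rbmx was at 57.6 to 73.3 CPM in miScramble and 22.2 to 32.6 CPM in miRbmx, and Rbmxl1 was at 31.3 to 36.7 CPM in miScramble and 12.3 to 16.7 CPM in miRbmxl1. Of 12 neuroblast and sympathoadrenal markers, 11 were expressed well enough to be tested. The summed level of the 12 was 1800 to 2417 CPM in miScramble, 1860 to 2511 CPM in miRbmx and 1883 to 2341 CPM in miRbmxl1. The 6 fibroblast markers summed to 0.975 to 2.98 CPM over all libraries, with Col3a1 at 0 in each, and the 6 leukocyte markers to 0.453 to 1.52 CPM, with Cd3e at 0 in each. In bulk RNA, a change in the share of cells that express a gene and a change in RNA per cell cannot be told apart.

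The sequences below show where the known ATF4 response element letters lie at 3 of the genes described later. The windows searched were the 250 bases before each RefSeq start on GRCm38.p6, for TGATGNAA or its other-strand form TTNCATCA, the core of the C/EBP-ATF response element. Of the 42 genes 34 were in the RefSeq table, and 8 of these (23.5%) held the letters: Chac1, Slc7a11, Asns, Gars, Nupr1, Aars, Pycr1 and Tars. Over all 27025 genes in the table the share was 3.9%. The 3 printed are those that also changed in a knockdown, with the matched letters in capitals, read 5′ to 3′ on the strand of the gene.
Slc7a11, chr3:50443615-50443734, minus strand, 121 to 2 bases before the start: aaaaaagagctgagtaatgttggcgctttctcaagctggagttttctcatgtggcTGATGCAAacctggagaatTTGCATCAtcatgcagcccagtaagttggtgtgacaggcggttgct
Asns, chr6:7693214-7693243, minus strand, 34 to 5 bases before the start: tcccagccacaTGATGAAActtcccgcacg
Gars, chr6:55037881-55038000, plus strand, 120 to 1 bases before the start: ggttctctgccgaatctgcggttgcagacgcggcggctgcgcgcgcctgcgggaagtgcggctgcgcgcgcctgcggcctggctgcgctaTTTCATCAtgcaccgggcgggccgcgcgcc
Slc7a11 carries the letters on both strands, starting 66 and 47 bases before the start, Asns carries them 23 bases before the RefSeq start, and Gars, on the other strand, 30 bases before. The Asns stretch lies within an annotated exon of GENCODE M21, in which the gene starts further upstream. Of the 3 genes, Asns and Gars were higher and Slc7a11 lower in miRbmx than in miScramble. Of the 9 genes called below, 8 were in the table and 3 held the letters. A match of letters is a description of the sequence, not a measured binding site.

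Of the 42 genes, 7 rose and 2 fell in Rbmx knockdown. In Rbmxl1 knockdown the 2 genes that fell were the same, Stc2 and Slc7a11, and 0 rose. The genes that rose in miRbmx were Asns, Psat1, Phgdh, Mthfd1l and Aldh18a1 among the enzymes, the transporter Slc7a5 and the synthetase Gars. Their log2 fold changes were 0.21 to 0.29, at most 1.23-fold. The calls come from edgeR's quasi-likelihood test with the replicate number as a block, at a Benjamini-Hochberg adjusted p under 0.05 over 17569 genes. By that rule 9 of 42 were called in miRbmx, where 8.35% of all tested genes were called (4.16% higher and 4.19% lower). In miRbmxl1 2 of 42 were called, where 4.46% of all tested genes were called (2.25% higher and 2.2% lower). The shares were larger among the 13675 genes with at least 1 CPM in 4 libraries. There 11.5% of genes and 9 of 42 were called in miRbmx, and 6.43% of genes and 3 of 42 in miRbmxl1. Without the replicate block 0 of 42 were called in either knockdown by edgeR, with 3 of 42 at an unadjusted p under 0.05 in each. Of all 17569 genes, 1919 in miRbmx and 1487 in miRbmxl1 were then at that unadjusted p. In miRbmx the log2 fold changes of the 42 ran from -0.37 to 0.29 both with the block and without it. With the block an unadjusted p under 0.05 was found for 17 of 42 in miRbmx and 13 of 42 in miRbmxl1, beside 4366 and 3479 of all 17569 genes. Without the block the called genes had adjusted p from 0.274 to 0.778 in miRbmx and from 0.397 to 0.559 in miRbmxl1, and 0.00569% of all genes were called.

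The sign of the differences was mostly positive in miRbmx. There, 33 of the 42 had a positive log2 fold change, with a median of 0.09 beside a median of -2.2e-05 over all genes tested. In 18 of 42 the miRbmx library was above the miScramble library of the same number in 4 of 4 pairs, and in 5 of 42 it was below in 4 of 4 (17.7% and 16.8% of all genes). In miRbmxl1, 25 of 42 were positive with a median of 0.03 (0.007 over all genes), and 6 and 5 of 42 had 4 of 4 pairs higher and lower (13.4% and 12.6% of all genes). Without replicate number 1 the median was 0.053 in miRbmx and turned to -0.013 in miRbmxl1. Both knockdowns were compared with the same miScramble libraries, so the values are given side by side and not as 2 independent sets.

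**Figure D1:**
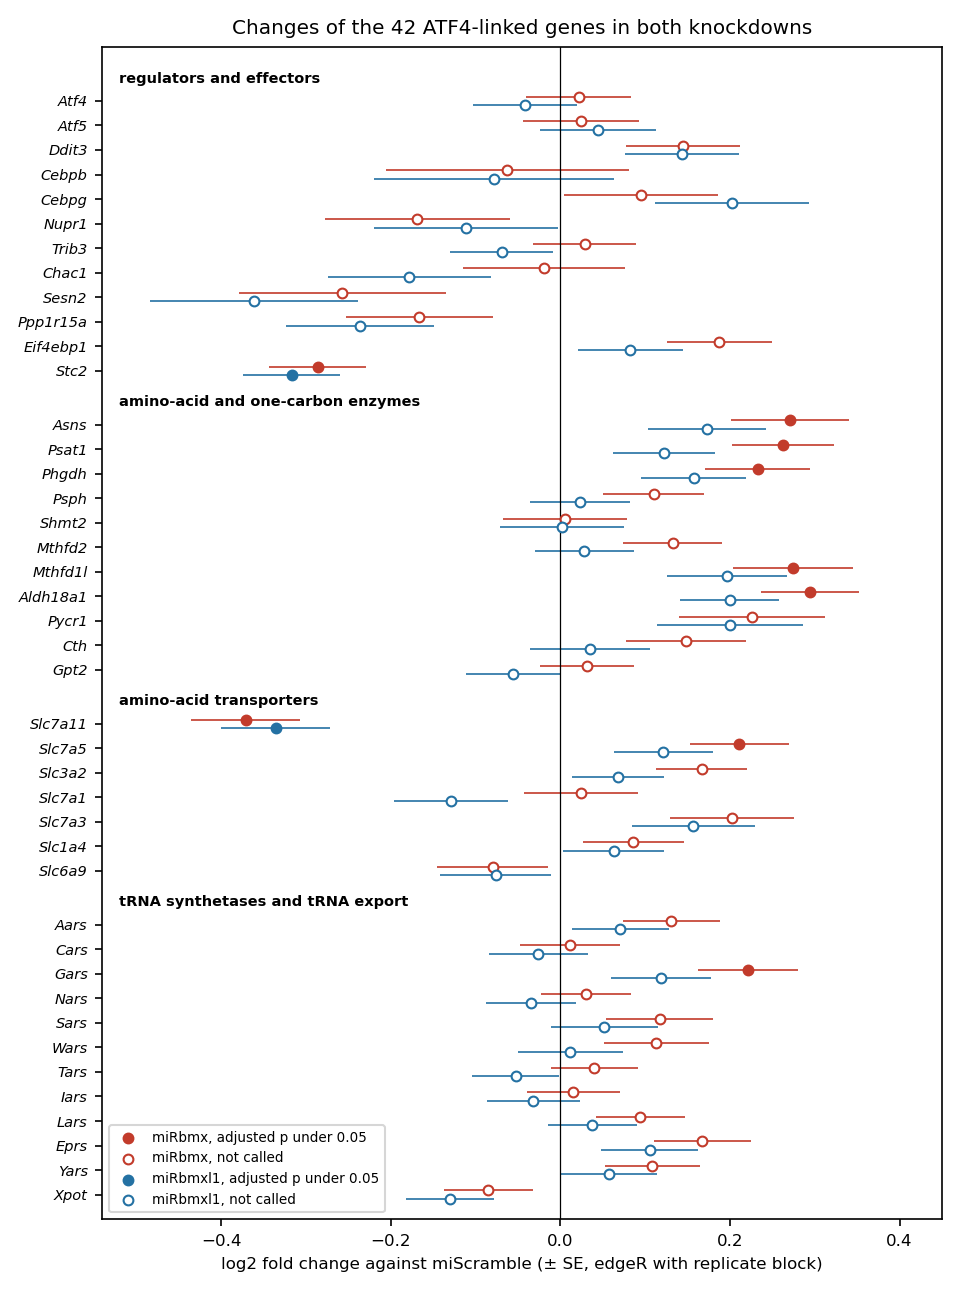
Log2 fold change against miScramble (horizontal axis, ± SE from edgeR with the replicate block) for each of the 42 genes, in miRbmx (red) and miRbmxl1 (blue), grouped by role. Filled points are called at an adjusted p under 0.05; there are 9 in miRbmx and 2 in miRbmxl1, and all 11 enzymes lie to the right of 0 in miRbmx, Shmt2 at 0.005 and at -0.015 without the block.

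Among the 12 regulators and effectors only Stc2 was called, lower, in each knockdown, beside 8.35% of all genes in miRbmx and 4.46% in miRbmxl1. The median log2 fold change of the 12 was 0.0012 in miRbmx, with 6 negative, and -0.07 in miRbmxl1, with 8 negative. An unadjusted p under 0.05 was found for 3 of 12 and 5 of 12. Atf4 (chromosome 15, 80255184 to 80257541, plus strand, GENCODE M21 on GRCm38) encodes the transcription factor itself. It had the highest level per length of the 42, 503 RPKM in miScramble, where RPKM is the CPM per kilobase of exon. Its 4 libraries, replicates 1 to 4, were at 1158, 1142, 1229 and 1217 CPM in miScramble, at 1224, 1173, 1200 and 1217 CPM in miRbmx, and at 1032, 1076, 1218 and 1298 CPM in miRbmxl1. The groups overlapped, with mean levels of 1187 ± 42.9, 1204 ± 22.9 and 1156 ± 123 CPM (SD, n = 4 each). The log2 fold changes were 0.02 ± 0.06 in miRbmx and -0.04 ± 0.06 in miRbmxl1 (edgeR adjusted p 0.862 and 0.767).

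Stc2 (chromosome 11, 31357307 to 31370074, minus strand) encodes stanniocalcin 2, a secreted glycoprotein. It was at 92.9, 105, 128 and 137 CPM in miScramble, at 83, 89.5, 99.8 and 103 CPM in miRbmx, and at 75.9, 84.6, 97.3 and 113 CPM in miRbmxl1. Each knockdown library lay below the miScramble library of its number, although the ranges of the groups overlapped. Stc2 fell by 0.29 ± 0.06 on the log2 scale in miRbmx and by 0.32 ± 0.06 in miRbmxl1 (edgeR adjusted p 0.0101 and 0.00908). Both calls were lost without replicate 3, without replicate 4 and without miScramble replicate 3, where the log2 fold changes stayed between -0.35 and -0.24 over all libraries or numbers left out.

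Atf5, a related bZIP factor also controlled at translation, was the next highest regulator per length. It was at 561, 537, 414 and 434 CPM in miScramble, at 666, 585, 400 and 372 CPM in miRbmx, and at 659, 544, 404 and 425 CPM in miRbmxl1. The higher values belong to replicates 1 and 2 in every group, and the groups overlap. The difference from miScramble was 0.02 ± 0.07 in miRbmx and 0.04 ± 0.07 in miRbmxl1 on the log2 scale (edgeR adjusted p 0.860 and 0.778). Atf5 exons overlap those of genes on the opposite strand, as do Shmt2 exons below, and the strand setting of the counting is not given in the sources used here, so these counts are uncertain.

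The other 9 regulators were not called in either knockdown. Among them Ddit3, which encodes the pro-apoptotic factor CHOP, had log2 fold changes of 0.14 ± 0.07 and 0.14 ± 0.07. For Trib3, a pseudokinase, the values were 0.03 ± 0.06 and -0.07 ± 0.06, and for Chac1, which degrades glutathione, -0.02 ± 0.10 and -0.18 ± 0.10. Sesn2, a leucine sensor upstream of mTORC1, had the most negative value of any gene not called: -0.26 ± 0.12 in miRbmx and -0.36 ± 0.12 in miRbmxl1 (edgeR adjusted p 0.203 and 0.106). Sesn2 was also the only gene of the 42 for which all miRbmx libraries lay below all miScramble libraries (3.85% of all genes). For 0 of the 42 did all libraries of a knockdown lie above all miScramble libraries, which was so for 4.22% of all genes in miRbmx and 2.88% in miRbmxl1. Its 4 miScramble libraries were at 281, 208, 219 and 212 CPM, the first well above the others. Eif4ebp1, which encodes a translation repressor, had 0.19 ± 0.06 in miRbmx (edgeR adjusted p 0.0728).

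Enzymes of amino-acid and one-carbon synthesis gave most of the calls in miRbmx. Of the 11, 5 rose, 0 fell and 6 were not called, beside 4.16% of all genes called higher and 4.19% lower, and the median log2 fold change was 0.23. In miRbmxl1, where 4.46% of all genes were called, 0 of the 11 were called, 5 of 11 had an unadjusted p under 0.05, 10 were positive and the median was 0.12. With DESeq2, Aldh18a1 was called in miRbmxl1 (0.19, adjusted p 0.0322). It was also called there by edgeR with upper-quartile scaling and with a filter of at least 1 CPM in 4 libraries (edgeR adjusted p 0.0392 and 0.0439).

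Asns (chromosome 6, 7675169 to 7693254, minus strand) encodes asparagine synthetase, a classic ATF4 target. It was at 519, 593, 605 and 657 CPM in miScramble, at 648, 715, 764 and 735 CPM in miRbmx, and at 669, 558, 723 and 728 CPM in miRbmxl1. The miRbmx libraries were higher in 4 of 4 pairs, while the lowest miRbmx library lay just below the highest miScramble library. Asns rose by 0.27 ± 0.07 on the log2 scale in miRbmx and differed by 0.17 ± 0.07 in miRbmxl1 (edgeR adjusted p 0.0272 and 0.174).

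The serine pathway contributed Phgdh and Psat1, which encode its first 2 enzymes. Phgdh (chromosome 3, 98313170 to 98339990, minus strand) was at 364, 398, 498 and 509 CPM in miScramble, at 479, 457, 571 and 563 CPM in miRbmx, and at 456, 404, 518 and 596 CPM in miRbmxl1. Psat1 (chromosome 19, 15904678 to 15947337, minus strand) was at 365, 392, 490 and 508 CPM in miScramble, at 441, 483, 612 and 565 CPM in miRbmx, and at 436, 386, 543 and 546 CPM in miRbmxl1. Within each group both genes were higher in replicates 3 and 4 than in 1 and 2, so the groups overlapped although every miRbmx library exceeded its numbered partner. Phgdh rose by 0.23 ± 0.06 and Psat1 by 0.26 ± 0.06 on the log2 scale in miRbmx (edgeR adjusted p 0.0314 and 0.0168). In miRbmxl1 the differences were 0.16 ± 0.06 and 0.12 ± 0.06 (edgeR adjusted p 0.165 and 0.274). Psph, which encodes the last enzyme of the pathway, was not called (0.11 ± 0.06 and 0.02 ± 0.06).

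Of the mitochondrial one-carbon enzymes, Mthfd1l (chromosome 10, 3973118 to 4167081, plus strand) makes formate from 10-formyl-tetrahydrofolate. It was at 211, 243, 271 and 289 CPM in miScramble, at 259, 334, 314 and 313 CPM in miRbmx, and at 267, 251, 319 and 321 CPM in miRbmxl1. Mthfd1l rose by 0.27 ± 0.07 on the log2 scale in miRbmx and differed by 0.20 ± 0.07 in miRbmxl1 (edgeR adjusted p 0.0281 and 0.127). The enzymes upstream of it were not called. Shmt2, which passes the serine carbon to folate, was at 540, 568, 832 and 792 CPM in miScramble, at 641, 611, 721 and 730 CPM in miRbmx, and at 583, 632, 695 and 799 CPM in miRbmxl1. Its values were more spread in miScramble (SD 150 CPM) than in miRbmx (SD 58.9 CPM). The log2 fold changes of Shmt2 were 0.005 ± 0.07 and 0.002 ± 0.07 (edgeR adjusted p 0.973 and 0.993), and those of Mthfd2 0.13 ± 0.06 and 0.03 ± 0.06.

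Aldh18a1 (chromosome 19, 40550257 to 40588463, minus strand) encodes the synthase that starts proline formation from glutamate. It was at 158, 186, 249 and 255 CPM in miScramble, at 208, 211, 317 and 303 CPM in miRbmx, and at 206, 191, 288 and 284 CPM in miRbmxl1. All 8 knockdown libraries were above the miScramble library of the same number. Aldh18a1 rose by 0.29 ± 0.06 on the log2 scale in miRbmx, with nearly the same value within replicates 1 and 2 (0.30 ± 0.09) and within 3 and 4 (0.29 ± 0.06), and edgeR adjusted p 0.00956 over all. The call was lost without replicate 3 and without miScramble replicate 3, while the log2 fold change stayed between 0.25 and 0.34 over all libraries or numbers left out. In miRbmxl1 the difference was 0.20 ± 0.06 (edgeR adjusted p 0.0614). Pycr1, which encodes the last enzyme of proline synthesis, differed by 0.23 ± 0.09 and 0.20 ± 0.09 and was not called.

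**Figure D2:**
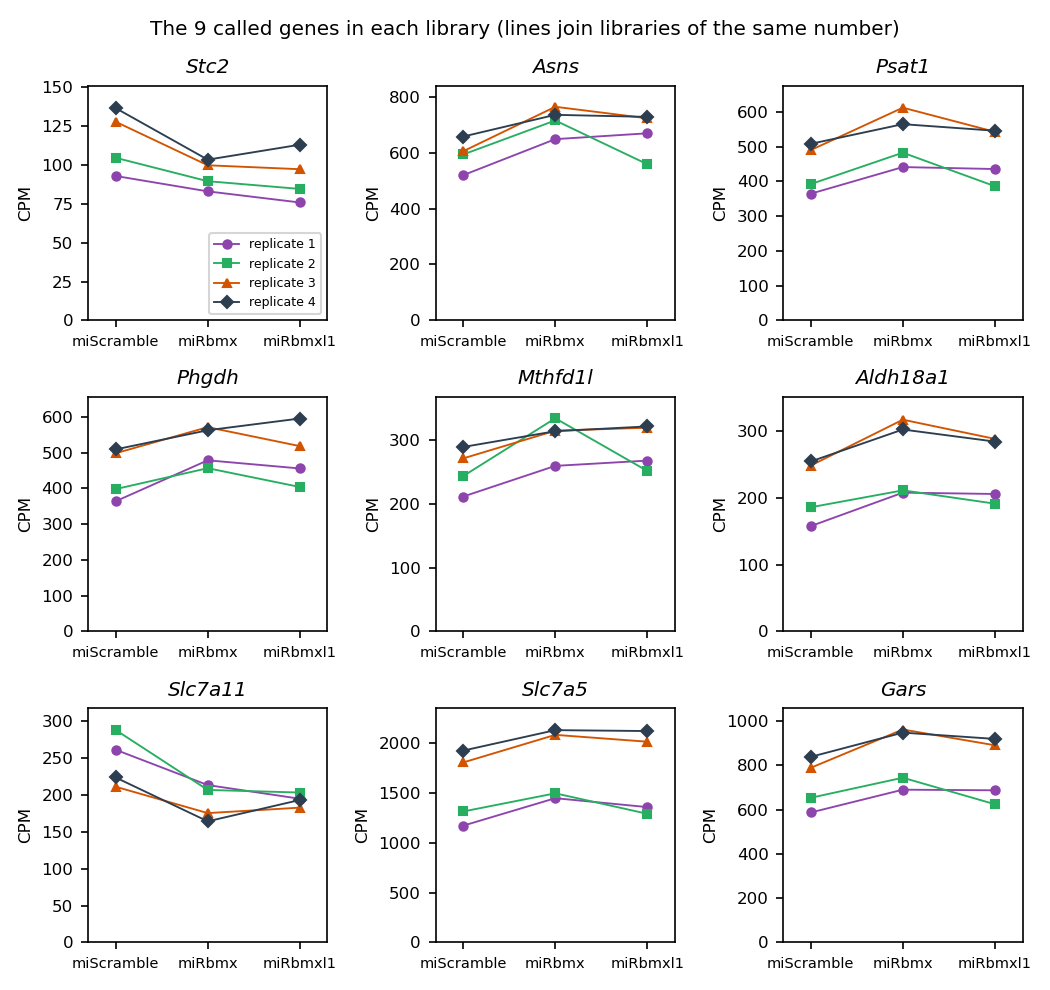
Level (CPM, vertical axis from 0) of the 9 called genes in each of the 12 libraries, with lines joining libraries of the same replicate number across the 3 groups. Slc7a11 and Stc2 drop from miScramble to both knockdowns along every line, and the other 7 genes go up from miScramble to miRbmx along every line while the numbers 3 and 4 mostly lie above 1 and 2.

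The amino-acid transporters split. Of 7, Slc7a11 fell in both knockdowns, Slc7a5 rose in miRbmx, and 5 were not called in either, beside 8.35% of all genes called in miRbmx and 4.46% in miRbmxl1. Slc7a11 (chromosome 3, 49892526 to 50443614, minus strand) encodes xCT, the cystine-glutamate exchanger that supplies cysteine for glutathione. It was at 261, 288, 211 and 224 CPM in miScramble, at 213, 207, 175 and 164 CPM in miRbmx, and at 195, 203, 183 and 193 CPM in miRbmxl1. All miRbmxl1 libraries lay below all miScramble libraries, as did 2.79% of genes in that comparison, while in miRbmx replicate 1 just exceeded the lowest miScramble library. Slc7a11 fell by 0.37 ± 0.06 on the log2 scale in miRbmx and by 0.34 ± 0.06 in miRbmxl1 (edgeR adjusted p 0.00655 and 0.0123). In miRbmx it was called without any 1 of the 4 replicate numbers and without any 1 of the 8 libraries, with log2 fold changes of -0.41 to -0.33. In miRbmxl1 its call was lost without miScramble replicate 2, and the log2 fold change was -0.45 ± 0.08 within replicates 1 and 2 and -0.22 ± 0.07 within 3 and 4.

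Slc7a5 (chromosome 8, 121881150 to 121907694, minus strand) encodes LAT1, the importer of large neutral amino acids, and had the next highest level per length after Atf4, 418 RPKM in miScramble. It was at 1170, 1312, 1803 and 1922 CPM in miScramble, at 1445, 1494, 2080 and 2127 CPM in miRbmx, and at 1356, 1289, 2011 and 2118 CPM in miRbmxl1. Slc7a5 rose by 0.21 ± 0.06 on the log2 scale in miRbmx and differed by 0.12 ± 0.06 in miRbmxl1 (edgeR adjusted p 0.0375 and 0.265). Slc3a2 encodes CD98, the heavy chain that both LAT1 and xCT need at the membrane. It was at 512, 543, 724 and 773 CPM in miScramble, at 570, 597, 831 and 873 CPM in miRbmx, and at 522, 527, 794 and 859 CPM in miRbmxl1. It was higher in 4 of 4 miRbmx pairs but not called, with 0.17 ± 0.05 and 0.07 ± 0.05 (edgeR adjusted p 0.0678 and 0.527). DESeq2 with the same block called Slc3a2 in miRbmx (adjusted p 0.0233). So did edgeR with upper-quartile scaling and with only the 2 groups compared (edgeR adjusted p 0.0441 and 0.0365). The cationic transporter gene Slc7a1 had 0.02 ± 0.07 and -0.13 ± 0.07.

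Of the 12 genes for tRNA synthetases and tRNA export, 1 was called in miRbmx, a share near the 8.35% of all genes, and 0 in miRbmxl1, where 1 of 12 had an unadjusted p under 0.05. Gars (chromosome 6, 55038007 to 55079500, plus strand) encodes the glycine enzyme, used in cytosol and mitochondria. It was at 587, 654, 789 and 839 CPM in miScramble, at 690, 744, 962 and 948 CPM in miRbmx, and at 688, 624, 891 and 920 CPM in miRbmxl1. Gars rose by 0.22 ± 0.06 on the log2 scale in miRbmx, the same within replicates 1 and 2 (0.22 ± 0.09) and within 3 and 4 (0.22 ± 0.06), and differed by 0.12 ± 0.06 in miRbmxl1 (edgeR adjusted p 0.0318 over all and 0.283). Wars, for tryptophan, was at 247, 258, 359 and 370 CPM in miScramble, at 309, 279, 364 and 372 CPM in miRbmx, and at 283, 259, 322 and 374 CPM in miRbmxl1. Its log2 fold changes were 0.11 ± 0.06 and 0.01 ± 0.06 (edgeR adjusted p 0.271 and 0.945). Of the 12 genes in this role 11 had positive values in miRbmx, with a median of 0.10, and 7 in miRbmxl1, with a median of 0.02. Xpot, the tRNA export receptor, was the exception in miRbmx, at -0.08 ± 0.05, and was below its numbered miScramble library in 4 of 4 pairs of each knockdown without being called.

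The number of calls depended on single libraries. In miRbmx it was 8 of 42 without miRbmx replicate 4, and 3 of 42 without miScramble replicate 1, miRbmx replicate 2 or miRbmx replicate 3. It was 4 without miRbmx replicate 1, 5 without miScramble replicate 4, 6 without miScramble replicate 2 and 1, Slc7a11, without miScramble replicate 3. Without replicate number 1, 2, 3 or 4 in all groups it was 4, 6, 1 and 2. The share of all genes called fell below 8.35% in each of these fits too, to 0.831% without replicate number 3, 1.57% without miScramble replicate 3, 5.89% without miRbmx replicate 4 and at most 6.0%. Gars, Phgdh and Slc7a5 were called in 1 of the 8 fits that leave out 1 library, Asns and Mthfd1l in 2, Psat1 in 4, Aldh18a1 and Stc2 in 7 and Slc7a11 in 8. In miRbmxl1 the number of calls was 6 without miRbmxl1 replicate 2, 1 without miScramble replicate 2 or 3 and 2 without any other library. Of all genes, 5.77% were called without miRbmxl1 replicate 2, 1.09% without miScramble replicate 2 and 0.705% without miScramble replicate 3, beside 4.46% with all libraries. Within replicates 1 and 2 alone 0 of 42 were called by edgeR in miRbmx, with 16 at an unadjusted p under 0.05, and within 3 and 4 alone 8 of 42 were called. The shares of all genes called in these fits were 0.023% and 10.1%. Within replicates 1 and 2 both the share of all genes and the number for the 42 were lower than with all libraries. Within replicates 3 and 4 the share of all genes was higher than 8.35%, while the number for the 42 was 8 in place of 9. DESeq2 called 12 of 42 in miRbmx and 3 of 42 in miRbmxl1, the edgeR calls included, beside 11.5% and 7.28% of all genes it tested.

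**Figure D3:**
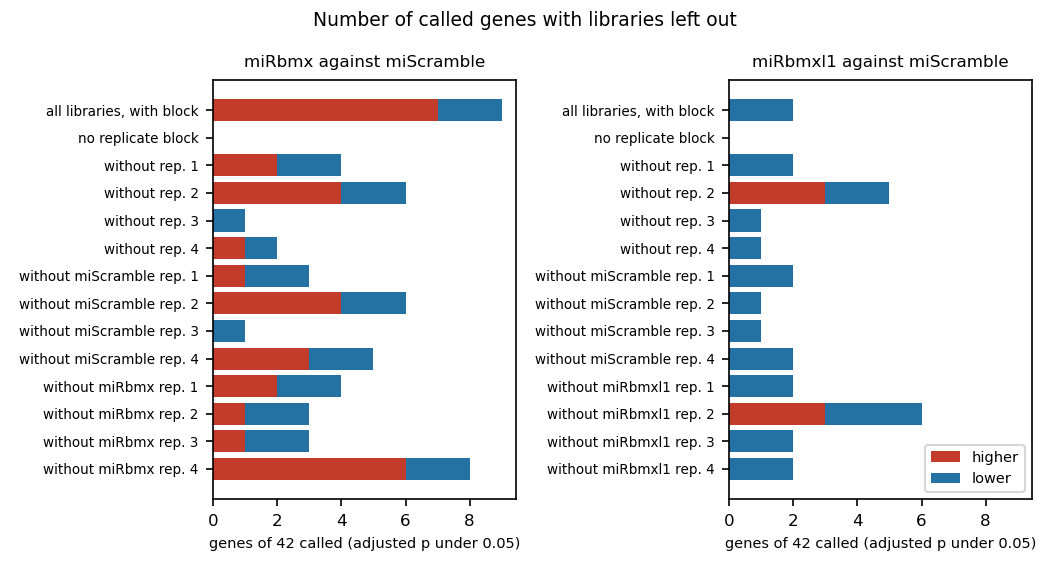
Number of the 42 genes called higher (red) and lower (blue) against miScramble when the block, a replicate number or a library is left out, for miRbmx (left) and miRbmxl1 (right). The 9 calls in miRbmx drop to 0 without the block and to 1 without miScramble replicate 3; the 2 calls in miRbmxl1 range up to 6.

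The knockdowns were also compared with each other. Of the 42 genes 0 were called between miRbmx and miRbmxl1 by edgeR or DESeq2, where edgeR called 0.0114% and DESeq2 0.0569% of all genes. In edgeR 2 of 42 had an unadjusted p under 0.05, beside 1002 of all 17569 genes. The fitted level was higher in miRbmx for 37 of 42, among them all 11 enzymes and all 12 genes of the tRNA group, with a median log2 difference of 0.06 (-0.0036 over all genes). Of these, Shmt2 turned its sign with upper-quartile scaling (-0.0026) and with the stricter filter (-0.0013). Single differences were small: 0.14 ± 0.06 for Psat1, 0.10 ± 0.07 for Asns, 0.10 ± 0.06 for Gars, -0.04 ± 0.06 for Slc7a11 and 0.03 ± 0.06 for Stc2 (edgeR adjusted p 0.859 to 0.961). The calls made in miRbmx alone are therefore not shown to differ between the knockdowns.

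A larger difference ran through all groups with the replicate number. In 30 of the 42 genes replicates 3 and 4 were both above replicates 1 and 2 in each of the 3 groups, as in 15.3% of all genes tested. Atf5 and Slc7a11 were below in each group, as in 15.9% of all genes, and 10 genes were mixed, among them Atf4. The tRNA group had 11 of 12 higher, the enzymes 9 of 11, the transporters 4 of 7 and the regulators 6 of 12. Within miScramble the median log2 ratio of replicates 3 and 4 to 1 and 2 was 0.37 over the 42 (-0.00014 over all genes). For Slc7a5 the mean was 1241 CPM in replicates 1 and 2 and 1862 CPM in 3 and 4 of miScramble, and for Ddit3 67.3 and 111 CPM. For both genes the ratio exceeds the change in either knockdown. What the number marks is not given in the labels, and no test was made of this split. Reads outside annotated features were 26.3% to 29.2% of the file totals in replicates 1 and 2 and 30.8% to 32.2% in 3 and 4, and their part in the result was not tested.

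**Figure D4:**
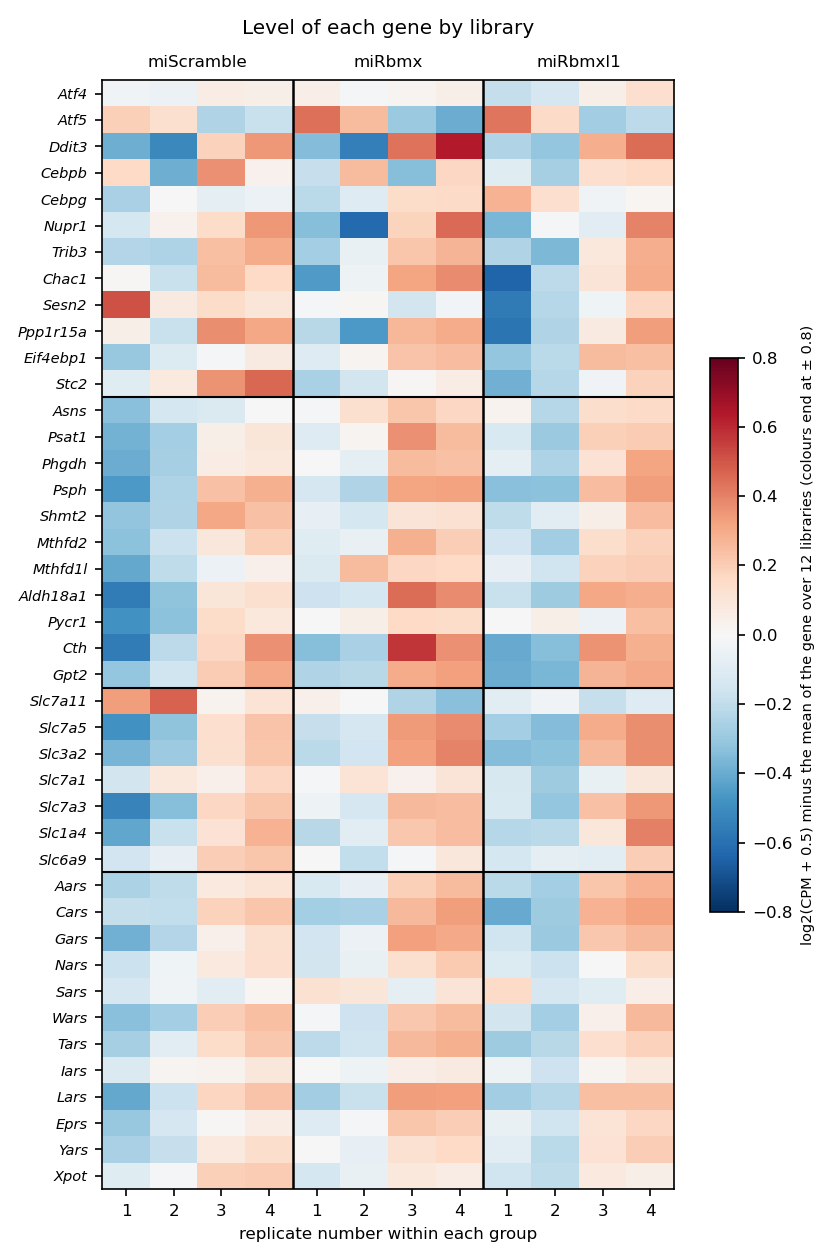
Level of each of the 42 genes in each library, as log2(CPM + 0.5) minus the mean of the gene over the 12 libraries; columns are replicates 1 to 4 of each group, rows are genes by role, and colours end at ± 0.8. Most rows turn from blue in replicates 1 and 2 to red in 3 and 4 in every group, whereas Atf5 and Slc7a11 run the other way.

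The knockdown changes themselves were compared between replicates 1 and 2 and replicates 3 and 4 by an interaction term. Of the 42 genes 0 were called in either knockdown by edgeR or DESeq2. At an unadjusted p under 0.05 in edgeR were 6 of 42 in miRbmx and 7 of 42 in miRbmxl1. All genes at that unadjusted p were not counted, so these numbers have no share to be set against. Over all 17569 genes edgeR called 0 in either knockdown, and DESeq2 called 55 in miRbmx and 44 in miRbmxl1. The lowest adjusted p of the 42 was that of Pycr1 with edgeR, 0.314 in miRbmx and 0.337 in miRbmxl1, and with DESeq2 that of Shmt2 in miRbmx, 0.113, and of Pycr1 in miRbmxl1, 0.114. By size, the log2 fold change of Mthfd1l in miRbmx was 0.39 ± 0.10 within replicates 1 and 2 and 0.16 ± 0.06 within 3 and 4, and that of Stc2 was -0.18 ± 0.08 and -0.39 ± 0.07.

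Upstream of Atf4, the list of 15 genes for eIF2 kinases, eIF2, its exchange factor eIF2B and the phosphatase had 3 calls in miRbmx and 2 in miRbmxl1, where 8.35% and 4.46% of all genes were called. Impact, an inhibitor of GCN2 activation, was at 275, 277, 259 and 260 CPM in miScramble, at 211, 202, 145 and 171 CPM in miRbmx and at 177, 175, 179 and 198 CPM in miRbmxl1. Neither knockdown overlapped miScramble. Impact fell by 0.57 ± 0.08 and by 0.55 ± 0.08 on the log2 scale (edgeR adjusted p 0.00241 and 0.00304; 0.21 and 0.303 without the block). Eif2ak2, the kinase PKR, fell by 0.26 ± 0.07 and by 0.38 ± 0.07 (edgeR adjusted p 0.0319 and 0.0112). Eif2s3x, for the gamma subunit of eIF2, rose by 0.23 ± 0.06 in miRbmx (edgeR adjusted p 0.0215).

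Of 18 further ATF4-linked stress genes 17 were tested, and 2 rose and 2 fell in miRbmx, while 0 rose and 2 fell in miRbmxl1 (8.35% and 4.46% of all genes called). Slc38a2 encodes the glutamine and alanine transporter SNAT2. It was at 1565, 1542, 1197 and 1274 CPM in miScramble, at 1351, 1314, 789 and 901 CPM in miRbmx and at 1148, 1015, 850 and 1041 CPM in miRbmxl1. Slc38a2 fell by 0.38 ± 0.08 and by 0.46 ± 0.08 on the log2 scale (edgeR adjusted p 0.0144 and 0.00911), and its miRbmxl1 libraries all lay below miScramble. The bZIP repressor gene Jdp2 fell by 0.24 ± 0.07 and by 0.26 ± 0.07 (edgeR adjusted p 0.0422 and 0.0392). Cbs, for cystathionine synthesis, rose by 0.44 ± 0.09 and the transaminase gene Got1 by 0.22 ± 0.05 in miRbmx (edgeR adjusted p 0.00972 and 0.0241).

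Synthetase genes outside the 42 were counted against the same shares of all genes, 8.35% in miRbmx and 4.46% in miRbmxl1. Of 12 remaining cytosolic synthetase and scaffold genes 2 rose in miRbmx, Kars by 0.26 ± 0.06 and Dars by 0.23 ± 0.06 (edgeR adjusted p 0.0157 and 0.0386), and 0 were called in miRbmxl1, where 3 of 12 had an unadjusted p under 0.05. Kars was at 276 to 290 CPM in miScramble and 331 to 338 CPM in miRbmx, with no overlap. Of 16 mitochondrial synthetase genes 2 were called higher in each knockdown. Among them, Iars2 rose in miRbmx by 0.22 ± 0.06 and Tars2 in miRbmxl1 by 0.28 ± 0.06 (edgeR adjusted p 0.0443 and 0.0208). Of 12 endoplasmic reticulum chaperone and IRE1 or ATF6 arm genes, which report on the other branches of the unfolded protein response, 1 was called: Creld2 rose by 0.33 ± 0.10 in miRbmx (edgeR adjusted p 0.0443). In miRbmx 7 of the 12 had an unadjusted p under 0.05, 10 were positive and the median log2 fold change was 0.19. In miRbmxl1 0 of the 12 were called, with 3 of 12 at an unadjusted p under 0.05. Without the replicate block 0 genes of these lists were called in either knockdown. Of the 11 neuroblast and sympathoadrenal markers tested, 1 was called in each knockdown and 10 were not. The called marker was the proto-oncogene Mycn, which rose by 0.56 ± 0.12 and by 0.66 ± 0.12 (edgeR adjusted p 0.0126 and 0.00844). Of the 11, 3 were negative in miRbmx and 4 in miRbmxl1, with median log2 fold changes of 0.09 and 0.11. The part of Mycn in the results above was not tested.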

How the data were processed

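The authors deposited raw read counts, 1 file per library, for 55401 Ensembl identifiers. Per the submitters' processing notes, STAR 2.5.3a, HTSeq 0.6.1p1, DESeq2 1.16.1 and the build mm10 were used; the strand setting is not given in the sources used here. The 5 closing rows that name no gene, which held 52.3% to 57.4% of the counts in each file, were left out. Names and positions came from GENCODE M21, in which 55141 identifiers were found; of 2 identifiers named Ddit3, that with 0 counts was not used. Exons of 3 of the 42 genes overlap another gene on the same strand (Ddit3, Cebpg, Aars) and of 11 a gene on the opposite strand, so those counts are uncertain.

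Genes were kept by filterByExpr (minimum count 10, minimum total 15) and scaled by TMM. edgeR 4.0.16 (R 4.3.3) fitted group and replicate number over all 12 libraries with 6 residual degrees of freedom, and its quasi-likelihood F-test was adjusted over 17569 genes by Benjamini-Hochberg. Each SE is the log2 fold change over the square root of F. The common dispersion was 0.0093 with the block and 0.0362 without it. Log2 CPM deviations from group means correlated across genes at 0.20 to 0.52 in the 12 same-number pairs, 0.10 to 0.43 in 12 pairs within replicates 1 and 2 or 3 and 4, and -0.57 to -0.13 in the other 24. The labels call the libraries biological replicates and do not say what the number marks; the pairing comes from the values. The fit without the block, DESeq2 1.42.0, other scalings and filters, and fits without a library or number were alternatives. Scripts were tested on simulated data. No 2 libraries held identical counts.

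The genes, the lists, the tests and the block were chosen with earlier results of these data known. Values in every library are given for Atf4, each called gene and, in each role, the further gene with the highest level per length. Other lists name their called genes, at most 4 each, except for some genes that are not reported here.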

Additional observations from a re-analysis of the deposited data

Results flagged for a closer look

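Of 126 sets of 4 libraries (42 genes in 3 groups), 2 had 1 library far from the other 3 by Dixon's ratio at its 95% critical value, and chance alone marks about 1 set in 20. Sesn2 was at 281 CPM in miScramble replicate 1, against 208 to 219 CPM in the other 3 miScramble libraries. Sars was at 441 CPM in miRbmx replicate 3, against 498 to 505 CPM in the other 3 miRbmx libraries. Neither gene was called in a knockdown.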

How the results depend on the processing

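The calls depended on the replicate block. Without it 0 of the 42 genes were called in miRbmx and 0 in miRbmxl1. Over all genes it was 1 in each, in place of 1467 and 783. No fit held only the split between replicates 1 and 2 and replicates 3 and 4, so pairing by number cannot be told apart from that split. The cause of the lost calls was not tested beyond the change in dispersion. Within replicates 1 and 2 only, 0 were called in each knockdown, from 6 libraries, beside 0.023% of all genes in miRbmx and 0.172% in miRbmxl1. The median log2 fold change of the 42 in miRbmx was then 0.14. Within replicates 3 and 4 only, it was 0.054, and 1 gene was called in miRbmxl1, beside 5.53% of all genes. Without the filter on low counts 4 were called in miRbmxl1 and 3 in the interaction with the replicate sets, where 255 and 163 of all genes were called in miRbmx and miRbmxl1; the cause was not tested. Over all genes, miRbmxl1 calls were 1279 with DESeq2, 1243 without the filter and 426 with 2 groups only. Leaving out 1 library or number gave 1 to 8 calls and medians of 0.053 to 0.12 in miRbmx, 1 to 6 and -0.013 to 0.067 in miRbmxl1, and 0 calls and medians of 0.045 to 0.094 between the knockdowns; 0.831% to 6.0% of all genes were then called in miRbmx and 0.57% to 5.77% in miRbmxl1. None of the values whose sign turned was called. Within replicates 3 and 4, in miRbmx, Atf4 was -0.025, Atf5 -0.14 and Shmt2 -0.17. In miRbmxl1 Atf4 was 0.030, Atf5 -0.043, Shmt2 -0.13 and Wars -0.078. Between the knockdowns Atf4 was -0.055, Stc2 -0.045, Shmt2 -0.039 and Mthfd1l -0.026. Within replicates 1 and 2, Atf5 was 0.056 and Slc7a11 0.076 between the knockdowns. Shmt2 without the block was -0.015 in miRbmx, -0.012 in miRbmxl1 and -0.0032 between them. In miRbmxl1 it was -0.0033 with RLE, -0.0030 without the filter and -0.0033 with DESeq2, and between the knockdowns -0.0026 with upper-quartile scaling and -0.0013 with the stricter filter. With 1 library or number left out, in miRbmx, Atf4 ranged from -0.017 to 0.051, Atf5 from -0.051 to 0.10 and Shmt2 from -0.078 to 0.088. In miRbmxl1 Atf4 ranged from -0.094 to 0.0067, Atf5 from -0.023 to 0.10, Shmt2 from -0.055 to 0.090 and Wars from -0.052 to 0.067. Between the knockdowns Atf5 ranged from -0.064 to 0.047, Stc2 from -0.0066 to 0.084, Shmt2 from -0.061 to 0.048, Mthfd1l from -0.030 to 0.13 and Slc7a11 from -0.087 to 0.032.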
